A study of Mus musculus with 2 samples.

Results

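The 9 genes described here are the receptors Kdr (ENSMUSG00000062960), Flt1 (ENSMUSG00000029648) and Flt4 (ENSMUSG00000020357), the co-receptors Nrp1 (ENSMUSG00000025810) and Nrp2 (ENSMUSG00000025969), and the ligands Vegfa (ENSMUSG00000023951), Vegfb (ENSMUSG00000024962), Vegfc (ENSMUSG00000031520) and Pgf (ENSMUSG00000004791), out of 33696 genes counted in each library. They were taken as a named family, by what the proteins do and not by their values, and all 9 had UMIs in both libraries. Single cells of 2 tumor models were sequenced, the macrophage-rich PyMT-M, a High-MAC model, and PyMT-N, a Low-MAC model. Both are sub-lines of MMTV-PyMT mammary tumors, in which the mammary tumor virus promoter drives the polyoma middle T oncogene, and both were grown in the fourth mammary fat pad of female C57BL/6 mice aged 6 to 8 weeks, with no further treatment named. For each model, cells of 3 tumors were depleted of CD45+ and Ter119+ cells, sorted for CD31 and CD144 and pooled into 1 library, so with 1 library per model there was no replicate check and no test of a difference between models.

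Vascular endothelial growth factors drive the growth and permeability of blood vessels and lymphatic vessels. Vegfa signals to blood endothelium mainly through Kdr, while Flt1 binds Vegfa, Vegfb and Pgf with high affinity and can act as a decoy. Vegfc, once cleaved, acts on Flt4 of lymphatic endothelium and also on Kdr, and the neuropilins Nrp1 and Nrp2 bind both VEGF ligands and class 3 semaphorins.

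Cells with at least 200 detected genes and at most 10% mitochondrial UMIs were kept, 6719 of 7821 barcodes in PyMT-M and 5607 of 6974 in PyMT-N. The cells were put into 5 classes by marker UMIs. Blood endothelial cells had at least 5 UMIs of Pecam1, Cdh5 and Esam together, at most 1 of Krt8, Krt18 and Rhox5, and 0 of Prox1, and numbered 578 in PyMT-M and 1064 in PyMT-N. Lymphatic cells had at least 3 UMIs of Prox1, Mmrn1 and Reln (20 and 207 cells). Tumor-class cells had at least 3 UMIs of Krt8, Krt18 and Rhox5 and 0 of Pecam1 and Emcn (4997 and 3470 cells). Fibroblasts had at least 3000 CPM (UMIs per 1000000 UMIs of all genes) of Col3a1 (58 and 63 cells), and Ptprc+ cells had at least 1 UMI of the leukocyte gene Ptprc (488 and 357 cells). The libraries are labelled endothelial, but the tumor class made up 74.4% of kept cells in PyMT-M and 61.9% in PyMT-N. In all, 60 and 91 cells met more than 1 rule, 638 and 537 met none, and 20 barcodes occurred in both libraries.

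The classes were compared with their markers. Emcn, Cldn5, Tie1, Egfl7, Eng, Plvap and Ecscr, summed, stood at 6002 (PyMT-M) and 5328 CPM (PyMT-N) in the blood endothelial class and at 125 and 97.3 CPM in tumor-class cells. Lymphatic cells held 4865 and 14659 CPM of Lyve1, Pdpn, Ccl21a, Prox1, Mmrn1 and Reln in sum, of which Prox1, Mmrn1 and Reln set the class. They also held 1146 and 130 CPM of capillary genes, 652 and 226 CPM of arterial genes and 1281 and 1361 CPM of venous genes. Of the epithelial markers of the tumor class, Epcam was at 3.5 CPM and 0.4 CPM, Cdh1 at 0.1 CPM in both, and Krt7 and Krt19 at 0.524 CPM or less. The class rests on Krt8 and Rhox5 in one model and on Krt8 and Krt18 in the other, and is named here by its rule only. In PyMT-N the same cells also held 241 CPM of Pdgfrb, a mural and fibroblast gene, against 36.7 CPM in PyMT-M. Ptprc+ cells carried 395 CPM of Rhox5 in PyMT-M and 204 CPM of Krt18 in PyMT-N, which is RNA of the tumor class. Therefore the Ptprc+, lymphatic and fibroblast classes were also measured in cells with at most 1 UMI of Krt8, Krt18 and Rhox5, a step added after the data were seen. In this step the Ptprc+ cells and fibroblasts, but not the lymphatic cells, also had at most 1 UMI of Pecam1, Cdh5 and Esam together. Both limits apply wherever Ptprc+ cells or fibroblasts with at most 1 tumor marker UMI are named below, and their effects were not separated. Median depth was 5224 and 12702.5 UMIs per blood endothelial cell and 23778 and 20917.5 per tumor-class cell. Shares of cells are therefore also given with every cell thinned to 3000 UMIs, which leaves out 102 and 5 blood endothelial cells.

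Levels are CPM of the UMIs summed over a class, and ranges in parentheses are exact Poisson 95% intervals, which cover counting error only. UMIs mark the 3′ ends of transcripts, so levels do not scale with transcript length, and membrane-bound and soluble Flt1 or the splice forms of Vegfa were not told apart.

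The receptors Kdr and Flt1 were high in the blood endothelium of both models, and Kdr was also high in lymphatic cells. The bases just before their starts are shown because cells of the endothelial classes held most UMIs of both genes, with 11.3% to 13.7% in cells of no class, with the letters GGAA, the core that ETS factors bind, in capitals on either strand (TTCC where it lies on the other strand). All 9 genes were found in the RefSeq promoter table (GRCm38.p6). The windows are chr5:75978456-75978705 and chr5:147726012-147726261, both on the minus strand and 250 bases long, ending at the base before the annotated start.
Kdr: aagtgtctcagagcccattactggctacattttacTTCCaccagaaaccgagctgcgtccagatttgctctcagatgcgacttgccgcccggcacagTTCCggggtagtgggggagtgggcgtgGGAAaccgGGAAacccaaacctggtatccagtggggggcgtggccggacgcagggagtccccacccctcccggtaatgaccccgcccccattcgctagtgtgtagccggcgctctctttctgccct
Flt1: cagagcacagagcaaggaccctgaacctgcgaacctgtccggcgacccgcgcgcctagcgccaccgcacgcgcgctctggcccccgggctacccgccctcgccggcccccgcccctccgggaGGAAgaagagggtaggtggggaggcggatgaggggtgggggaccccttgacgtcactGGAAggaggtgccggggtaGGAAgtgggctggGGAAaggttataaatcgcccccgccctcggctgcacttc
Both windows held GGAA 4 times, against a median of 3 over 27025 promoters, of which 93.4% held it at least once. Flt1 also held the longer GGAAG, which overlaps GGAA, 3 times, and Kdr held it 1 time, with 63.7% of all promoters holding it. The matches describe the letters only.

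**Figure D1:**
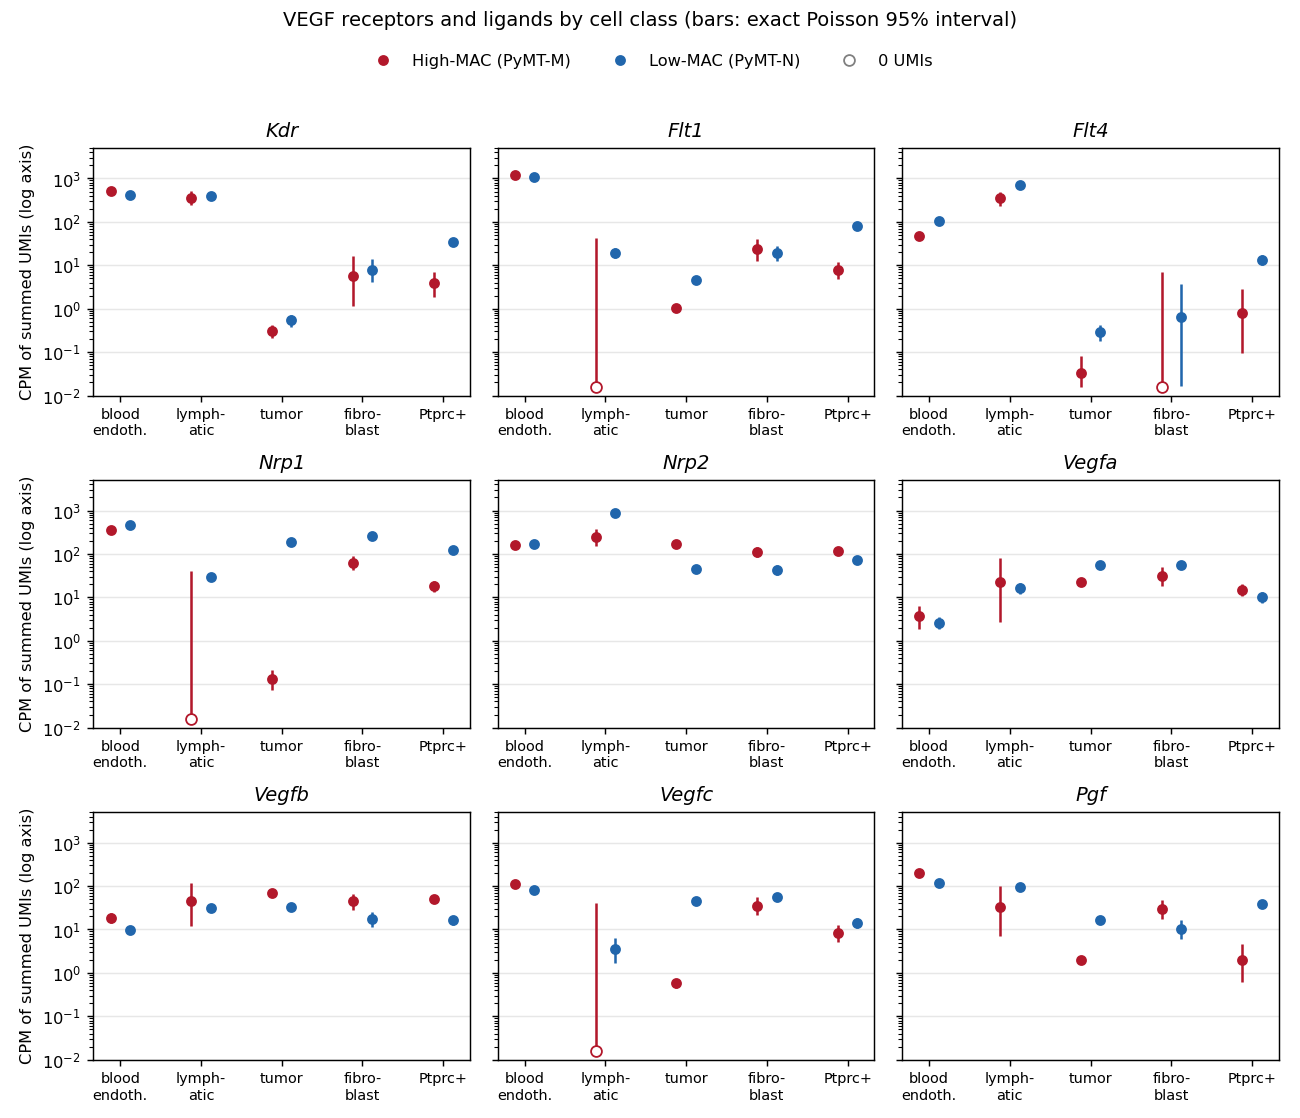
Level of each gene in 5 cell classes, in CPM of summed UMIs on a log axis; red points are PyMT-M, blue points PyMT-N, bars are exact Poisson 95% intervals and open circles mark 0 UMIs. Kdr and Flt1 stand above 400 CPM in blood endothelial cells and below 5 CPM in tumor-class cells, while Nrp1 separates the tumor-class cells of the models, at 0.129 and 188 CPM.

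Kdr, the main signaling receptor for Vegfa, stood at 527 CPM (502 to 552) in blood endothelial cells of PyMT-M and 411 CPM (401 to 421) in PyMT-N. Lymphatic cells held 359.5 CPM (246 to 508) in PyMT-M and 403 CPM (380.1 to 427) in PyMT-N. In PyMT-M this was somewhat less than in the blood endothelium (log2 ratio −0.55, −1.104 to −0.05). The 19 PyMT-M lymphatic cells with at most 1 tumor marker UMI held 415 CPM (280 to 593), a range that overlaps that of the blood endothelium. Tumor-class cells were at 0.299 and 0.536 CPM, 1760-fold and 766-fold below the blood endothelium. By the class rule, tumor-class cells held 0 UMIs of Pecam1 and Emcn, so a low level of endothelial RNA in them was partly set in advance. At 3000 UMIs, a Kdr UMI was found in 69.7% and 64.3% of blood endothelial cells and in 0.04% and 0.144% of tumor-class cells. In PyMT-N, blood endothelial and lymphatic levels could not be told apart (log2 ratio −0.03, −0.12 to 0.06).

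Flt1, the high-affinity receptor, had more UMIs in blood endothelial cells than any other of the 9 genes, at 1170 CPM (1133 to 1208) and 1057 CPM (1040.2 to 1073). Unlike Kdr, it was not shared with lymphatic cells, which held 0 UMIs in 20 PyMT-M cells, where 3 UMIs would be 33.7 CPM, and 19.4 CPM in PyMT-N. In PyMT-N, that was 54.5-fold less than in blood endothelial cells. At matched depth 85.9% and 80.3% of blood endothelial cells had a Flt1 UMI, and 62.6% and 54.4% had both Flt1 and Kdr.

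Flt4, the receptor of Vegfc, was highest in lymphatic cells, at 348 CPM (237 to 494) in PyMT-M and 690.2 CPM (659.97 to 721) in PyMT-N. Blood endothelial cells held 47.9 CPM (40.7 to 56.0) and 103 CPM (97.7 to 108), which was 7.27-fold and 6.72-fold less. With 207 lymphatic cells in PyMT-N and 20 in PyMT-M, lymphatic cells carried 51.4% of all Flt4 UMIs in PyMT-N and 12.8% in PyMT-M, where blood endothelial cells carried 65.5%.

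Both neuropilins were read in the tumor class, at levels that differed between models. Nrp1, a co-receptor of Kdr, was at 359 CPM (339 to 380.2) and 462 CPM (451 to 473) in blood endothelial cells. In tumor-class cells it gave 16 UMIs in 4997 PyMT-M cells, 0.129 CPM (0.074 to 0.21), and 15066 UMIs in 3470 PyMT-N cells, 188 CPM (185 to 191), a 1451-fold difference. At 3000 UMIs, 0.02% of PyMT-M and 40.5% of PyMT-N tumor-class cells had an Nrp1 UMI. Nrp2, a co-receptor of Flt4, went the other way, at 166 CPM (163 to 168) in PyMT-M and 44.0 CPM (42.6 to 45.5) in PyMT-N, 3.76-fold higher in PyMT-M, with a UMI in 38.9% and 10.3% of cells at matched depth. In PyMT-M, tumor-class and blood endothelial cells did not differ in Nrp2 beyond counting error (log2 ratio 0.01, −0.11 to 0.14). Tumor-class cells held 87.8% of the Nrp2 UMIs and 1.0% of the Nrp1 UMIs of PyMT-M, where they held 87.6% of the UMIs of all genes, and 36.4% and 57.7% of those of PyMT-N, where they held 69.3%.

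Fibroblasts as a whole class, of which 12 of 58 and 10 of 63 were also tumor-class cells, differed between models in the same directions. Their Nrp1 stood at 63.3 CPM (43.8 to 88.4) in PyMT-M and 253 CPM (228 to 279) in PyMT-N. Their Nrp2 stood at 112 CPM (85.2 to 144) and 43.1 CPM (33.3 to 54.8). In the 45 and 44 fibroblasts with at most 1 tumor marker UMI, Nrp1 stood at 101 and 208 CPM and Nrp2 at 52.0 and 46.1 CPM. There the Nrp2 levels lay close together, and Nrp1 was above Nrp2 in both models, unlike in the tumor class. In PyMT-M the ranges of Nrp1 (69.5 to 142) and Nrp2 (30.3 to 83.3) in these fibroblasts overlap. Lymphatic cells were read as Nrp2-positive and almost Nrp1-negative, with 877 CPM (843 to 912) of Nrp2 and 29.3 CPM of Nrp1 in PyMT-N. In PyMT-M the 20 lymphatic cells held 247 CPM of Nrp2 and 0 UMIs of Nrp1. Blood endothelial cells held both in 19.3% and 28.3% of cells at matched depth.

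The bases before the start of both neuropilin genes are shown because these genes exchanged places in the tumor class, with each CG dinucleotide, the site of DNA methylation in mammals, in capitals. The windows are chr8:128358823-128359072 for Nrp1 and chr1:62703067-62703316 for Nrp2, both on the plus strand and from the same table. No methylation was measured.
Nrp1: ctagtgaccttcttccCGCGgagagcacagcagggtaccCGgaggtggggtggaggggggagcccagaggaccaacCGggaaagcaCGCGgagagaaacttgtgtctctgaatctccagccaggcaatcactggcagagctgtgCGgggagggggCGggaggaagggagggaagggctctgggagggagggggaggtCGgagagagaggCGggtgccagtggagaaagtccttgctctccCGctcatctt
Nrp2: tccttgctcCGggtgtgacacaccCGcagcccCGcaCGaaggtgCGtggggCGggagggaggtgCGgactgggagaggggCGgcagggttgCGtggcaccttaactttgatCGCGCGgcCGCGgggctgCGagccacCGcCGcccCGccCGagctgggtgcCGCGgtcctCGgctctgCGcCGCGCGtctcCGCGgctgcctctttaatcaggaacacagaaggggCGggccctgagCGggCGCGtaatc
Nrp1 held 11 CG dinucleotides in 250 bases and Nrp2 held 32, against a median of 6 and a 95th percentile of 30 over all promoters, of which 91.7% held at least 1.

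Which cells made each ligand was read as the level per class and as the share of a ligand's UMIs held by each class, counting each cell in 1 class. The tumor class held 87.6% (PyMT-M) and 69.3% (PyMT-N) of the UMIs of all genes, and shares of a ligand are read against these. The mix of cells was set by the sort, so shares describe these libraries and not the tumors.

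Vegfa, the main angiogenic ligand, was low in blood endothelial cells, at 3.69 CPM (1.9 to 6.44) in PyMT-M and 2.62 CPM (1.86 to 3.58) in PyMT-N. Tumor-class cells held 22.8 CPM (22.0 to 23.7) and 56.5 CPM (54.9 to 58.2), 6.19-fold and 21.6-fold more than the blood endothelium. Fibroblasts taken as a whole class were near the level of the tumor class, with 31.6 CPM (18.4 to 50.7) from 17 UMIs in PyMT-M and 55.5 CPM (44.3 to 68.7) in PyMT-N. Their log2 ratios to the tumor class, 0.47 (−0.31 to 1.15) and −0.03 (−0.35 to 0.28), did not separate the classes in either model. Among fibroblasts with at most 1 tumor marker UMI, Vegfa of PyMT-M stood at 45.9 CPM (25.7 to 75.7), a range above that of the tumor class. It came from 15 UMIs, with 9 of them in 1 cell. Such fibroblasts of PyMT-N held 61.1 CPM (46.7 to 78.5), a range that overlaps that of the tumor class. Ptprc+ cells with at most 1 tumor marker UMI held 7.91 CPM (6 UMIs) and 11.2 CPM (12 UMIs), and the myeloid cells among them, with at least 3 UMIs of Lyz2, Csf1r and Tyrobp, held 10.1 and 5.1 CPM from 4 and 3 UMIs. The tumor class carried 89.4% (PyMT-M) and 84.6% (PyMT-N) of Vegfa UMIs, against 87.6% and 69.3% of all UMIs.

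Vegfb, a ligand of Flt1, was spread over all classes. Tumor-class cells held 70.4 CPM (69.0 to 71.9) and 32.7 CPM (31.5 to 33.97), and 89.6% and 78.5% of its UMIs. Blood endothelial cells held 18.1 CPM (13.8 to 23.4) and 9.99 CPM (8.45 to 11.7). In PyMT-M, Ptprc+ cells held 51.5 CPM and fibroblasts 44.7 CPM, but with at most 1 tumor marker UMI they held 21.1 CPM (12.1 to 34.3) and 21.4 CPM (8.62 to 44.2), ranges that overlap that of the blood endothelium. In PyMT-N, lymphatic cells at 31.4 CPM (25.2 to 38.6) could not be told apart from the tumor class.

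Vegfc, the lymphatic growth factor, was held mostly by different cells in the 2 models. In PyMT-M, blood endothelial cells held 109 CPM (98.3 to 121) and 69.2% of all Vegfc UMIs, and tumor-class cells 0.574 CPM (0.449 to 0.725) and 13.5%. In PyMT-N, tumor-class cells held 45.6 CPM (44.1 to 47.1) and 64.6% of the UMIs, next to 80.9 CPM (76.4 to 85.6) and 21.2% in blood endothelial cells. Per UMI of all genes, blood endothelial cells thus stayed the richest class in both models, by 190-fold and 1.78-fold over the tumor class. Fibroblasts held 35.4 CPM (21.3 to 55.2) and 55.5 CPM (44.3 to 68.7), and in PyMT-N they could not be told apart from the tumor class (log2 ratio 0.29, −0.04 to 0.60). Lymphatic cells, which bear Flt4, held 0 UMIs in PyMT-M and 10 UMIs, 3.53 CPM, in PyMT-N.

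Pgf, which binds Flt1 and not Kdr, was highest in blood endothelial cells in both libraries. Blood endothelial cells stood at 203 CPM (188 to 219) and 121 CPM (115 to 127), tumor-class cells at 2.01 CPM (1.77 to 2.28) and 16.3 CPM (15.4 to 17.2). Lymphatic cells of PyMT-N held 96.6 CPM (85.5 to 109), and those of PyMT-M 33.7 CPM from 3 UMIs in 1 cell. Because tumor-class cells were many, they still held 19.8% and 34.6% of Pgf UMIs, against 52.7% and 44.7% in blood endothelial cells. A further 25.7% of Pgf UMIs in PyMT-M lay in cells of no class, more than for any other of the 4 ligands in that library.

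**Figure D2:**
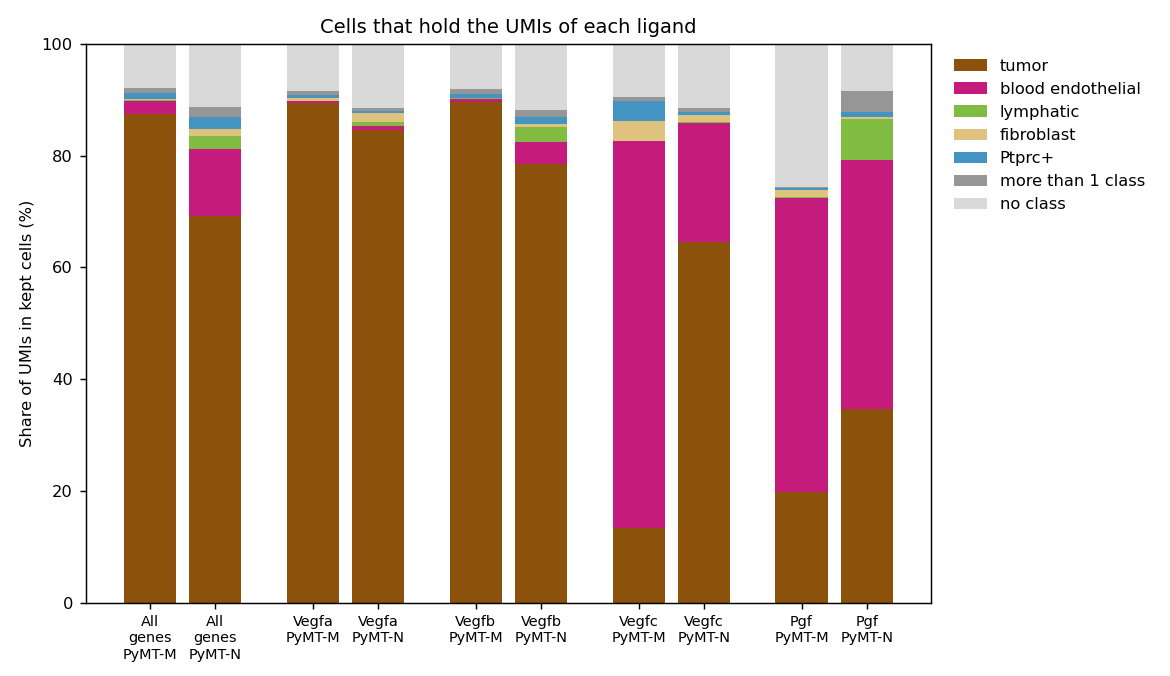
Share of the UMIs of each ligand, in percent, held by cells of each class, with the shares of all genes at the left; each cell is counted once. The tumor class holds most Vegfa and Vegfb UMIs in both libraries, 13.5% of PyMT-M and 64.6% of PyMT-N Vegfc UMIs, and blood endothelial cells hold 52.7% and 44.7% of Pgf UMIs.

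The genes that act with Vegfc were read in the same cells. Vegfd, the second ligand of Flt4, stood at 4.12 CPM (3.77 to 4.49) in tumor-class cells of PyMT-M and 109 CPM (107 to 112) in PyMT-N. Ccbe1, a secreted protein needed for cleavage of Vegfc, stood at 1.13 CPM (0.953 to 1.34) and 239.5 CPM (236 to 243). Adamts3, the protease that works with Ccbe1, went the other way in the tumor class, at 7.90 CPM (7.41 to 8.41) and 1.56 CPM (1.30 to 1.86). At 3000 UMIs, 24.8% of PyMT-N tumor-class cells had a Vegfd UMI and 36.005% a Ccbe1 UMI, against 1.18% and 0.220% in PyMT-M. Fibroblasts held Vegfd at 112 CPM (85.2 to 144) and 47.0 CPM (36.8 to 59.2), and in PyMT-M they stood 27.1-fold above the tumor class. Fibroblasts with at most 1 tumor marker UMI held 181 CPM (138 to 233) in PyMT-M and 16.02 CPM (9.16 to 26.0) in PyMT-N. Adamts3 of fibroblasts as a whole class stood at 5.58 CPM (1.15 to 16.3, from 3 UMIs) in PyMT-M and 17.6 CPM (11.6 to 25.7) in PyMT-N. Their Ccbe1 stood at 22.3 CPM (11.5 to 39.0) and 138 CPM (120 to 158). Lymphatic cells made up 0.298% (exact binomial 95% interval 0.182 to 0.459) of kept PyMT-M cells and 3.69% (3.21 to 4.22) of kept PyMT-N cells. They numbered 20 and 207, beside 578 and 1064 blood endothelial cells. The lymphatic rule is a fixed number of UMIs, depth differs between the libraries, and the mix of cells was set by the sort. The part of depth and of the sort in these shares was not tested. Nor was the part of Vegfc, Vegfd, Ccbe1 and Adamts3 in these shares tested.

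**Figure D3:**
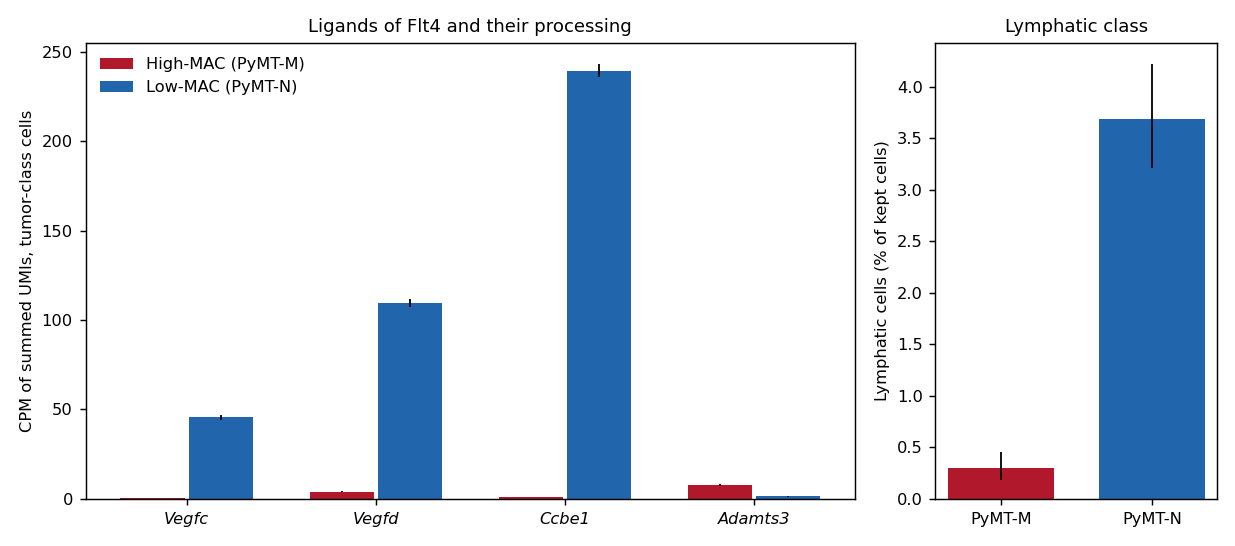
Left, level of Vegfc, Vegfd, Ccbe1 and Adamts3 in tumor-class cells, in CPM of summed UMIs, with exact Poisson 95% intervals; right, lymphatic cells as a percent of kept cells, with exact binomial 95% intervals. Vegfc, Vegfd and Ccbe1 are at 4.12 CPM or less in PyMT-M and at 45.6 to 239.5 CPM in PyMT-N, and lymphatic cells are 0.298% and 3.69% of kept cells. The lymphatic rule is a fixed number of UMIs and depth differs between the libraries, and the part of depth in these shares was not tested.

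Blood endothelial cells of the models were compared next. A gene was called where the ratio of the libraries was at least 1.5-fold, its exact interval left out 1 and at least 20 UMIs were counted, which speaks of these libraries and of counting error, not of the models. Among all 13173 genes with enough UMIs, 9.54% were called higher and 11.3% lower in PyMT-M, 20.8% in either direction. Of the 9 genes, Vegfb (log2 ratio, taken as PyMT-M over PyMT-N, 0.86, 0.40 to 1.30) and Pgf (0.75, 0.62 to 0.88) were called higher and Flt4 (−1.101, −1.35 to −0.86) was called lower, 2.14-fold. The call of Pgf was lost with the mean of CPM per cell (0.56) and with cells thinned to 3000 UMIs (0.53), and so was that of Vegfb (0.51, and 0.68 with an interval of −0.10 to 1.45). Flt4 was called in every alternative. The 6 lymphatic markers stood at 10.7 CPM in sum in blood endothelial cells of PyMT-M and at 61.2 CPM in PyMT-N. The part of lymphatic RNA in the Flt4 ratio was not tested. The other receptors lay within 1.5-fold, Kdr at 0.36 (0.28 to 0.44), Flt1 at 0.15 (0.10 to 0.20), Nrp1 at −0.36 (−0.46 to −0.27) and Nrp2 at −0.05 (−0.19 to 0.08). Vegfc was at 0.43 (0.26 to 0.61), and Vegfa, with 12 and 39 UMIs, at 0.49 (−0.57 to 1.46), was too rare for its direction to be read. Blood endothelial cells of PyMT-N also held more myeloid RNA, with the 6 myeloid markers at 356 CPM in sum against 38.4 CPM in PyMT-M, and 55 of them were also Ptprc+; their part in these ratios was not tested, and with cells of exactly 1 class Flt4 was at −1.18, Vegfb at 0.92 and Pgf at 0.75. By the class rule, blood endothelial cells held at most 1 UMI of Krt8, Krt18 and Rhox5, so a low level of tumor-class RNA was partly set in advance. In PyMT-N, Vegfd and Ccbe1 stood in them at 2.82% and 0.728% of their tumor-class level. The part of such RNA in their Vegfa level was not tested.

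In the tumor class all 9 genes were called, 2 higher and 7 lower in PyMT-M, where 63.8% of 17072 genes were called in either direction, 28.4% higher and 35.5% lower. The median log2 ratio of all these genes was −0.13. Ratios ran from −10.5 (Nrp1) and −6.31 (Vegfc) through −3.01 (Pgf), −1.31 (Vegfa) to 1.11 (Vegfb) and 1.91 (Nrp2). Kdr (−0.84), Flt1 (−2.21) and Flt4 (−3.15) were called too, but their levels there were at most 4.70 CPM. With mitochondrial, ribosomal and hemoglobin genes left out of the totals, the median of all genes was 0.07 and Vegfa was at −1.11, Vegfb at 1.31 and Nrp2 at 2.11, with no change of direction.

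**Figure D4:**
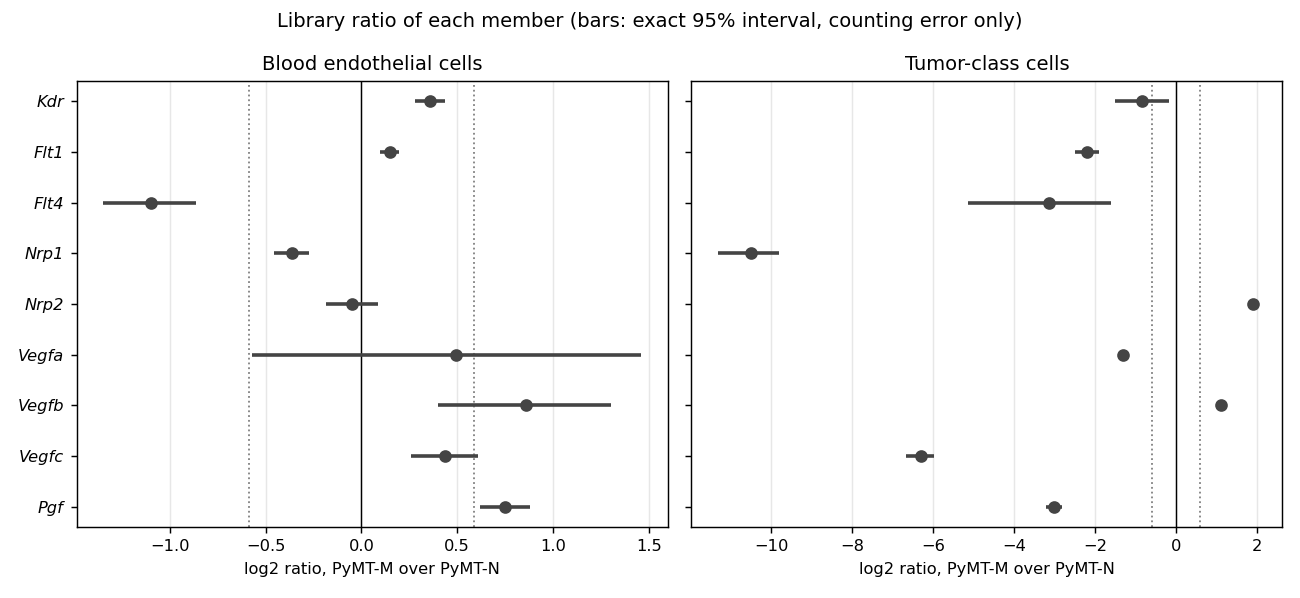
Ratio of the libraries (PyMT-M over PyMT-N, log2) for each gene, in blood endothelial cells (left) and tumor-class cells (right), with exact 95% intervals for counting error; dotted lines mark 1.5-fold. In blood endothelial cells the ratios lie between −1.101 and 0.86, in tumor-class cells between −10.5 and 1.91.

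Vegfa is a known target of hypoxia-inducible factors, and its level was set beside 17 hypoxia genes in the tumor class. Cells of each library were ranked by the summed level of the 17 genes and cut into 4 groups, with tied cells in the lowest. In PyMT-M, Vegfa stood at 16.8, 16.6, 20.4 and 36.04 CPM from the lowest to the highest group, a log2 ratio of highest over lowest of 1.1001 (0.94 to 1.26). In PyMT-N it stood at 41.7, 43.5, 52.4 and 87.9 CPM, a log2 ratio of 1.08 (0.95 to 1.199). The intervals of these ratios overlap, while the lowest PyMT-N group lay above the highest of PyMT-M. The hypoxia genes themselves went the other way between models, with 13 of 17 called higher in PyMT-M, 3 lower and a median log2 ratio of 1.33, Adm at 4.87, Pfkfb3 at 3.27 and Ndrg1 at 2.70. Among all genes of the tumor class, 28.4% were called higher and 35.5% lower. Pgf was higher in the highest group, by 2.63 (1.95 to 3.38) and 0.77 (0.54 to 0.999) on the log2 scale, and Vegfc was lower in the highest group, at −1.31 (−2.44 to −0.25) and −0.32 (−0.45 to −0.18). Within 250 bases before its start, Vegfa held 0 matches to ACGTG or GCGTG on either strand, the core that these factors bind, and 38.6% of all promoters held at least 1. Bases farther from the start were not searched, and the count describes the letters only.

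Among blood endothelial cells, most Pgf and Vegfc UMIs lay in few cells. The tenth of cells with the most UMIs of a gene held 86.4% (PyMT-M) and 76.2% (PyMT-N) of Pgf UMIs. For Vegfc it held 68.0% and 64.2%, against 33.9% and 30.1% for Kdr. Such a share can be higher where UMIs are fewer, and Kdr had more UMIs than either ligand. Nearer to Vegfc in UMIs, Nrp2 stood at 41.2% and 33.2% and Flt4 at 54.5% and 35.1%. At full depth, 19.9% and 30.2% of cells had a Pgf UMI and 26.1% and 35.6% a Vegfc UMI. At 3000 UMIs, 16.6% and 17.1% of cells had a Pgf UMI and 18.7% and 16.5% a Vegfc UMI, and 1.26% and 2.08% had both, against 3.10% and 2.82% if the genes were unrelated.

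Pgf was higher in cells with more UMIs of tip cell genes, which mark the leading cells of a sprout. Cells were ranked by Esm1, Apln, Angpt2, Pdgfb, Cxcr4 and Adm, and Pgf stood at 4.21, 30.4, 174.5 and 546 CPM from the lowest to the highest group in PyMT-M and at 14.7, 47.8, 93.1 and 319 CPM in PyMT-N. The log2 ratio of the extremes was 7.02 (5.46 to 9.30), with 3 UMIs in the lowest group, and 4.44 (4.04 to 4.87), which fell to 2.88 with cells thinned to 3000 UMIs. Vegfc ran the other way, from 143 to 81.5 CPM in PyMT-M and from 101 to 71.9 CPM in PyMT-N, at −0.82 (−1.27 to −0.37) and −0.49 (−0.72 to −0.26), and in PyMT-M it was at −1.66 with cells within 2-fold of the median gene number and at −0.43 (−0.88 to 0.02) with the mean of CPM per cell. Since few cells carry most Pgf UMIs, counting intervals are too narrow for differences between cells. Kdr, the receptor, was at −0.08 (−0.28 to 0.13) and 0.24 (0.13 to 0.35), and the PyMT-N value ranged from −0.11 to 0.26 over 13 alternatives.

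**Figure D5:**
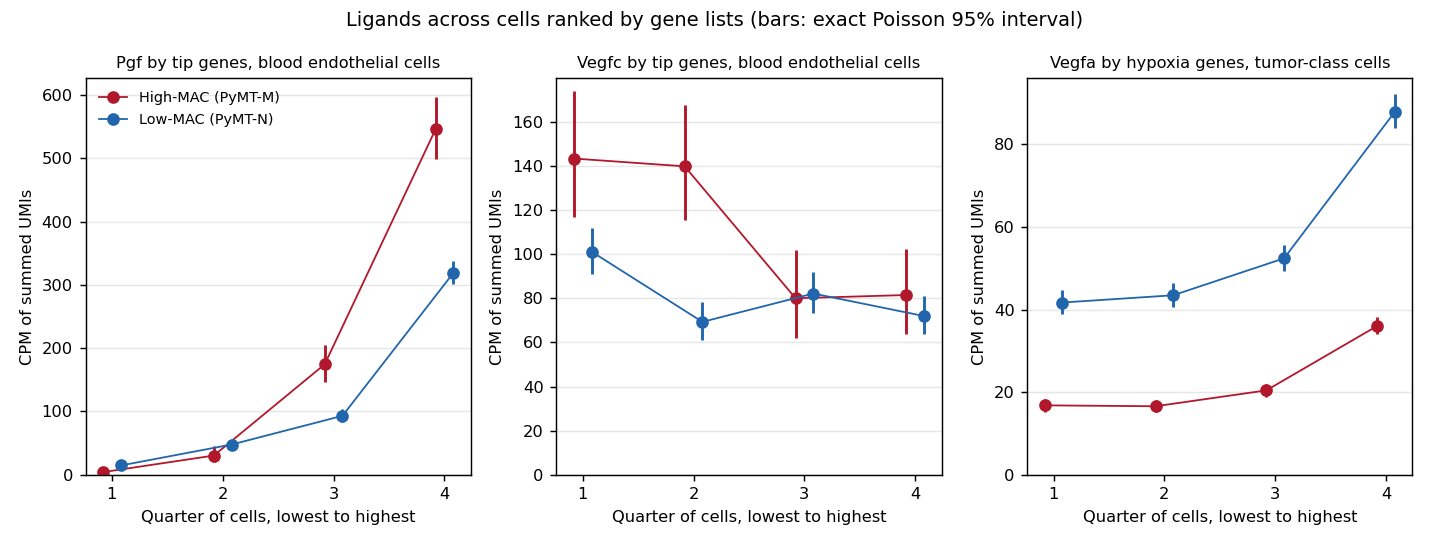
Level in CPM of summed UMIs across 4 groups of cells, lowest to highest, ranked by tip genes (Pgf and Vegfc in blood endothelial cells) or hypoxia genes (Vegfa in tumor-class cells), with exact Poisson 95% intervals. Pgf reaches 546 CPM in PyMT-M and 319 CPM in PyMT-N in the highest tip group, Vegfc is lower there than in the lowest group, and Vegfa in the highest hypoxia group is at 36.04 and 87.9 CPM.

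Pgf was not high by tip genes alone. By hypoxia genes its ratio was 4.47 (3.75 to 5.28) and 3.44 (3.14 to 3.75), and by capillary genes 0.02 (−0.33 to 0.37) in PyMT-M and 4.02 (3.63 to 4.44) in PyMT-N. By venous genes (Ackr1, Selp, Sele, Vwf, Nr2f2, Ephb4 and Lrg1), Vegfc was higher in the highest than in the lowest group, by 0.80 (0.30 to 1.31) and 1.84 (1.57 to 2.11), and Pgf lower, at −2.99 (−3.55 to −2.47) and −0.998 (−1.27 to −0.74). By arterial genes, whose lowest PyMT-M group is the 204 cells without such UMIs, Vegfc was higher by 1.82 (1.42 to 2.23) and 1.101 (0.86 to 1.34), while Pgf was lower in PyMT-M, at −0.72 (−1.15 to −0.31), and higher in PyMT-N, at 2.20 (1.97 to 2.44). By cycling genes, Pgf was lower in the highest group than in cells without such UMIs, at −1.91 (−2.32 to −1.51) and −2.66 (−2.95 to −2.38), and so was Vegfc, at −0.35 (−0.69 to −0.01) and −0.42 (−0.62 to −0.23). Nrp2 was higher in the venous-high group of both models, by 1.002 (0.66 to 1.35) and 0.65 (0.49 to 0.82). In PyMT-N so were the other receptors, from Nrp1 at 0.50 to Flt1 at 1.16. In PyMT-M so were Kdr at 0.34 (0.13 to 0.55) and Flt1 at 0.46 (0.31 to 0.61), while Nrp1 and Flt4 were not separated by their intervals. This was not particular to the venous list. All receptors were also higher in the arterial-high group of PyMT-N, from Kdr at 0.24 to Flt1 at 0.99. In PyMT-M, Kdr (0.63), Flt1 (0.68) and Nrp1 (0.54) were, and Flt4 and Nrp2 were not separated. The lists are ranges of a score and not cell types, and Adm is in both the tip and the hypoxia list.

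The wider pathway was read in blood endothelial cells from 6 lists with 83 genes, of which 77 had enough UMIs, and 12 were called higher, 11 lower and 54 neither in PyMT-M, where 9.54% and 11.3% of all genes were called higher and lower. Their median log2 ratio was 0.04, against −0.01 over all genes. Of 18 genes that VEGF induces in endothelium, 4 were called higher, 1 lower and 13 neither. Apln, the ligand of the apelin receptor, was at 433 and 157 CPM (log2 ratio 1.47, 1.37 to 1.56), Angpt2, which antagonizes Tek, at 274 and 111 CPM (1.30, 1.18 to 1.42), and the homeobox gene Hlx at 92.4 and 40.2 CPM (1.20, 0.995 to 1.402). The fourth was the immediate early gene Egr1 (0.98). Egr3, of the same family, was called lower at 1.23 and 5.84 CPM (−2.25, −4.16 to −0.84), from 4 and 87 UMIs.

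Of 9 receptor partners, 2 were called higher, 1 lower and 6 neither. For this and the following lists the background is 9.54% of all genes called higher and 11.3% called lower. Ptprb, a phosphatase that acts on Kdr and Tek, was at 635 and 416 CPM (0.61, 0.54 to 0.68) and the adaptor Dab2, which serves VEGF receptor endocytosis, at 166 and 98.6 CPM (0.75, 0.60 to 0.89), both called higher, while the phosphatase Ptprj was called lower at 14.4 and 28.6 CPM (−0.99, −1.45 to −0.55). Of 23 signaling genes 2 were called higher, 2 lower and 19 neither. Hspb1, a small heat shock protein phosphorylated downstream of Kdr, was at 705 and 208 CPM (1.76, 1.69 to 1.84), and the kinase Prkcb was at 2.76 and 43.7 CPM (−3.98, −5.12 to −3.05). Prkcb is also expressed by leukocytes, and blood endothelial cells of PyMT-N held more of the 5 lymphocyte markers, at 93.1 CPM in sum against 8.91 CPM, beside the myeloid markers given above; their part in its ratio was not tested. Among semaphorins and plexins, which compete for or pair with the neuropilins, 3 of 7 tested genes were called higher, Plxna4 (1.19), Plxna2 (0.61) and Sema3g (0.59), and Sema3a was called lower (−0.94). In the tumor class, 3 of 11 tested genes of this list were called higher and 6 lower. Among all genes of that class, 28.4% were called higher and 35.5% lower. Called higher were Sema3b, at 12.5 CPM (PyMT-M) and 2.21 CPM (PyMT-N), Plxna4 and Plxnd1. Called lower were Sema3f, at 0.20 and 17.0 CPM, Sema3d, at 0.07 and 15.9 CPM, Sema3c, Sema3g, Plxna1 and Plxna2.

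For each gene the 3 genes with the most similar pattern were named, by Pearson's correlation of log2(CPM + 5) over the 10 sums of 5 classes and 2 libraries, among 13877 genes. The 10 points share 2 libraries, and the values are descriptions. Kdr was closest to Rgl2, Snrk and Myct1 (r 0.992 to 0.995), Flt1 to Gpr4, Spop and Esam (0.965 to 0.971), and Flt4 to Reep1, Myzap and Galnt18 (0.986 to 0.994). Nrp1 was closest to Gm56862, Acyp2 and Tmem47 (0.949 to 0.982), and Nrp2 to Sgsm1, Chrnb1 and Dnaaf3 (0.900 to 0.955). Of the ligands, Vegfa was closest to Lhfp, Arhgef40 and Wdr35 (0.957 to 0.963), Vegfb to Rnh1, Echdc3 and Eef2kmt (0.970 to 0.980), Vegfc to Gm56862, Nudt12 and Nrp1 (0.943 to 0.973), and Pgf to Mtln, Nudt18 and Pdgfd (0.943 to 0.949). Esam is one of the genes that set the blood endothelial class. With 1 in place of 5 CPM added, 18 of these 27 genes were named again.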

How the data were processed

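The 2 libraries of pooled, sorted tumor cells were measured by 10x 3′ single-cell RNA sequencing. The authors made UMI counts per gene and cell with Cell Ranger 8.0.0, and the submitters' processing notes name the build mm39, while no source used here gives the annotation. The deposited values are raw counts, 141067264 UMIs over all barcodes for PyMT-M and 116150425 for PyMT-N. From these, UMIs were summed per class and library and divided by the total of that class. The tools were scanpy 1.11.5 and scipy 1.17.1 under Python 3.11.15. With 1 library per model no test was run, cells were not treated as replicates, and intervals (Poisson for levels, Clopper-Pearson for shares, the exact conditional interval for ratios) cover counting error only. Ratio and call were run on simulated Poisson counts, in which 95.94% of intervals held the true value. Such counts leave out differences between cells and between tumors, so the check speaks of the calculation only. Doublets were left in and removed only in an alternative, by Scrublet score. The limit on genes relative to the library median that the methods state was also an alternative, as were 14 further settings, 1 of them added after the data were seen. That limit fell unevenly, leaving 305 of 578 blood endothelial and 7 of 20 lymphatic cells in PyMT-M, and 1031 of 1064 and 199 of 207 in PyMT-N. Genes to be named were the 9 members, the 3 genes most alike to each and the markers. The highest and lowest 3 ratios of each pathway list were also to be named. Not all of those ratios and markers are given in the text. Egr1, tumor-class semaphorins and plexins and tumor-class hypoxia genes were named after their values were seen. The members and lists were chosen with earlier results of these data known. Promoter windows came from RefSeq tables of GRCm38.p6, another build than that of the counts, and were used only for their sequence and own coordinates.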

Additional observations from a re-analysis of the deposited data

Results flagged for a closer look

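Pgf differed between models in opposite directions in the 2 largest classes. On the log2 scale, PyMT-M against PyMT-N, it stood at 0.75 (0.62 to 0.88) in blood endothelial cells and −3.01 (−3.22 to −2.82) in tumor-class cells. It is given because both ratios were called and their signs differ. With 1 library per model the difference between the ratios was not tested. Kdr, Flt1, Vegfa, Vegfc and Nrp2 also differed in sign between these classes, with a blood endothelial ratio that was not called. The tumor-class level was low in both models, at 2.01 and 16.3 CPM.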

How the results depend on the processing

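No paired analysis was possible because each model has 1 library and no result comes from a test over samples. Each ratio was recomputed under 12 or 13 alternatives, and no called ratio between models changed sign. By tip genes, Pgf of PyMT-N was at 2.88 in thinned cells, Vegfc of PyMT-M at −1.66 with detected genes within 2-fold of the median and at −0.43 with the mean of CPM per cell, and Kdr of PyMT-N changed sign in 1 of 13 alternatives. The number of the 9 genes called higher in blood endothelial cells was 0 in place of 2 with the mean of CPM per cell, with cells thinned to 3000 UMIs and with a fold of at least 2. Pgf ranged from 0.53 to 0.91 there and Vegfb from 0.51 to 1.05, and the uncalled Vegfa changed sign, from −0.72 to 0.95. The number of ligands highest in the tumor class of PyMT-N was 1 in place of 2 with at most 5% mitochondrial UMIs, cells in exactly 1 class, mean of CPM per cell, Col3a1 at least 1000 CPM, and with low tumor RNA in the other classes, and that of PyMT-M was 2 in place of 1 with Col3a1 at least 1000 CPM. In PyMT-N, Vegfa of fibroblasts and Vegfb of lymphatic cells did not differ from the tumor class beyond counting error, and the cause of these changes was not tested. The hypoxia ratio of Vegfa in PyMT-M was 1.26 in thinned cells. Of the pathway genes, 6 were called higher and 5 lower with a fold of at least 2, and 7 lower with at least 100 UMIs. The shares of all genes called under these changed settings are not given here, so no count of called genes in this section is set against them. The median log2 ratio of all genes in the tumor class moved from −0.13 to 0.07 without mitochondrial, ribosomal and hemoglobin genes in the totals. Depth limited Vegfa in blood endothelium and every value of the 20 lymphatic cells of PyMT-M.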

Other observations

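Cells that met no class rule, 638 in PyMT-M and 537 in PyMT-N, held 25.8 and 75.5 CPM of Kdr and 52.5 and 160.7 CPM of Flt1, so endothelial receptors were also read outside the classes. The rule for mural cells (at least 3 UMIs of Rgs5, Pdgfrb and Notch3) took 527 and 3145 cells, of which 454 and 2711 were also of the tumor class, and was therefore not used as a cell type. Some Ptprc+ cells of PyMT-N carried Nrp2: among myeloid cells with at most 1 tumor marker UMI, 11 of 61 held all 95 UMIs, 161.5 CPM, with 43 of them in 1 cell, against 27.7 CPM in 127 such cells of PyMT-M.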
